A study of Mus musculus with 97 samples.

Results

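The 10 genes described here form the transcriptional core of the integrated stress response that runs through the transcription factor ATF4: Atf4, Atf5, Ddit3, Trib3, Chac1, Sesn2, Asns, Psat1, Phgdh and Fgf21. They were chosen by gene name from a table of 51368 genes measured by bulk RNA sequencing in 97 libraries of mouse heart and jejunum. The names match 11 entries, because Ddit3 is listed under 2 gene identifiers. The second Ddit3 entry held no count in any library, so Ddit3 below means ENSMUSG00000025408. The study fed C57BL/6 mice, 11 weeks old at the end, either plain chow or chow containing a non-steroidal anti-inflammatory drug for 3 weeks. Naproxen, which blocks both cyclooxygenases, made up 1323 ppm of the females' chow and 1610 ppm of the males'. Celecoxib, which blocks mainly cyclooxygenase-2, was given at 550 ppm. Tryptophan, an essential amino acid, was injected intraperitoneally at 50 mg/kg on each day of the last week.

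Each of the 4 experiments used its own mice, and the labels describe every library as a separate animal. In experiment 1 (hearts, no injections), 5 control females, 5 naproxen females, 5 control males and 5 naproxen males were sequenced. In experiment 2 (female hearts), there were 8 controls, 7 mice on naproxen and 8 on naproxen with tryptophan. Experiment 3 (female hearts) compared 8 controls with 8 mice given tryptophan. In experiment 4 (female jejuna), there were 8 controls, 8 mice on celecoxib, 7 on naproxen, 8 given tryptophan and 7 given naproxen with tryptophan. In experiments 2 to 4 the mice without tryptophan, controls included, were injected with saline. Whole hearts and pieces of flushed jejunum were used, so a gene's level mixes all cell types, and fewer cells of a type and less RNA per cell cannot be told apart.

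The integrated stress response begins when a kinase, such as the amino acid sensor GCN2 or the endoplasmic reticulum sensor PERK, phosphorylates the translation factor eIF2alpha. General protein synthesis then slows while the Atf4 message is translated more, through short upstream reading frames, so ATF4 protein is controlled largely after transcription. ATF4 binds C/EBP-ATF response elements and raises genes of amino acid synthesis, amino acid transport, redox balance and feedback. Shortage of an amino acid is a classical trigger of the pathway, and so are mitochondrial defects in heart and muscle.

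The factor genes lie at chr15:80255184-80257541 (Atf4, plus strand), chr7:44812256-44816658 (Atf5, minus) and chr10:127290774-127296288 (Ddit3, plus) of GRCm38. The feedback and effector genes lie at chr2:152337422-152344032 (Trib3, minus), chr2:119351229-119354381 (Chac1, plus) and chr4:132492032-132510501 (Sesn2, minus). The enzyme genes lie at chr6:7675169-7693254 (Asns, minus), chr19:15904678-15947337 (Psat1, minus) and chr3:98313170-98339990 (Phgdh, minus), and the hormone gene Fgf21 at chr7:45613886-45615490 (minus). All 10 are annotated as protein coding. Promoter sequences from RefSeq (GRCm38.p6) were searched for the core of the C/EBP-ATF response element, TGATGNAA, whose reverse complement is TTNCATCA, and for the cAMP response element TGACGTCA, which is its own reverse complement. The search covered both strands from 250 bases before to 50 bases after each RefSeq start, and the 8-letter patterns cannot share the same position. All 10 genes were found, with 12 promoters in all. TGATGNAA was present in 4 of the 10 genes and in 3.97% of all 32851 promoters of that length (1304). TGACGTCA was present in none of the 10 and in 1.79% of all promoters (588). The upstream stretches holding the response element core are shown because ATF4 is known to act through elements of this kind. Binding to these stretches was not measured. The match is in capitals, and the letters read 5′ to 3′ on the gene's own strand.
Asns, chr6:7693210-7693299, minus strand: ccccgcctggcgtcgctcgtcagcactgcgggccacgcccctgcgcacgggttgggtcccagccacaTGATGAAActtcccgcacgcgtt
Chac1, chr2:119351009-119351098, plus strand: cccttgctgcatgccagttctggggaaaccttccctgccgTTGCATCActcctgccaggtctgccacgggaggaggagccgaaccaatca
Fgf21, chr7:45615580-45615669, minus strand: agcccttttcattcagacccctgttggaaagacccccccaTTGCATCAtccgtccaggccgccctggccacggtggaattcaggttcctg
The Asns match begins 23 bases before the start, the Chac1 match 193 bases before it and the Fgf21 match 139 bases before it. In Trib3, the match lies 15 bases after the start. These positions count from the RefSeq starts, which differ from the ends of the gene spans given above by 45 bases for Asns, 28 for Trib3, 13 for Chac1 and 0 for Fgf21. The Asns match therefore lies inside the gene span and the Trib3 match before it. For Psat1 both RefSeq starts lie 22278 and 22715 bases inside the annotated span, and for Atf5 the second lies 1000 bases inside. A match is a description of letters in a window, and the absence of a match says nothing of binding elsewhere.

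The deposited values are estimated counts summed per gene. Library totals ran from 26295426 to 32470499 counts in experiment 1, from 28423606 to 67140576 in experiment 2, from 41404202 to 76357252 in experiment 3 and from 10107001 to 28537163 in the jejuna. Hearts were sequenced from polyadenylated RNA and jejuna from ribosome-depleted RNA, because the jejunal RNA was of lower integrity. All 7 cardiomyocyte markers in the hearts and all 8 enterocyte markers in the jejuna exceeded 0.1 CPM, a gene's count scaled to a common library total. In hearts, 6 of the 8 enterocyte markers and all 10 markers of exocrine pancreas were under 0.1 CPM. White adipocyte markers, however, were present in every heart group and varied widely between animals, as described with the enzymes below.

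Per kilobase of exon, Atf4 was the highest of the 10 genes in both tissues. In 59 hearts the median levels, in CPM per kilobase, were 24.1 for Atf4, 10.7 for Atf5, 6.94 for Ddit3, 1.66 for Chac1, 0.920 for Trib3, 0.870 for Sesn2, 0.858 for Asns, 0.655 for Psat1 and 0.610 for Phgdh. In 38 jejuna they were 43.5 for Atf4, 7.43 for Ddit3, 6.93 for Asns, 6.35 for Trib3, 3.73 for Phgdh, 2.33 for Psat1, 2.16 for Sesn2, 2.01 for Atf5 and 1.24 for Chac1. Atf4 stood apart from its neighbour in each order: the lowest heart held 17.0 against at most 16.6 for Atf5, and the lowest jejunum held 30.3 against at most 11.4 for Ddit3. Fgf21, at a median of 0 in both tissues, stood apart from Phgdh in the heart, where its highest value was 0.0437 against a lowest of 0.149. Every other pair of neighbours overlapped between libraries, down to Chac1 and Fgf21 in the jejunum. Atf5 ranked 2 in the heart and 8 in the jejunum, while Asns ranked 7 in the heart and 3 in the jejunum. Tissue, library kit and cohort change together here, so no test between tissues was made.

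**Figure D1:**
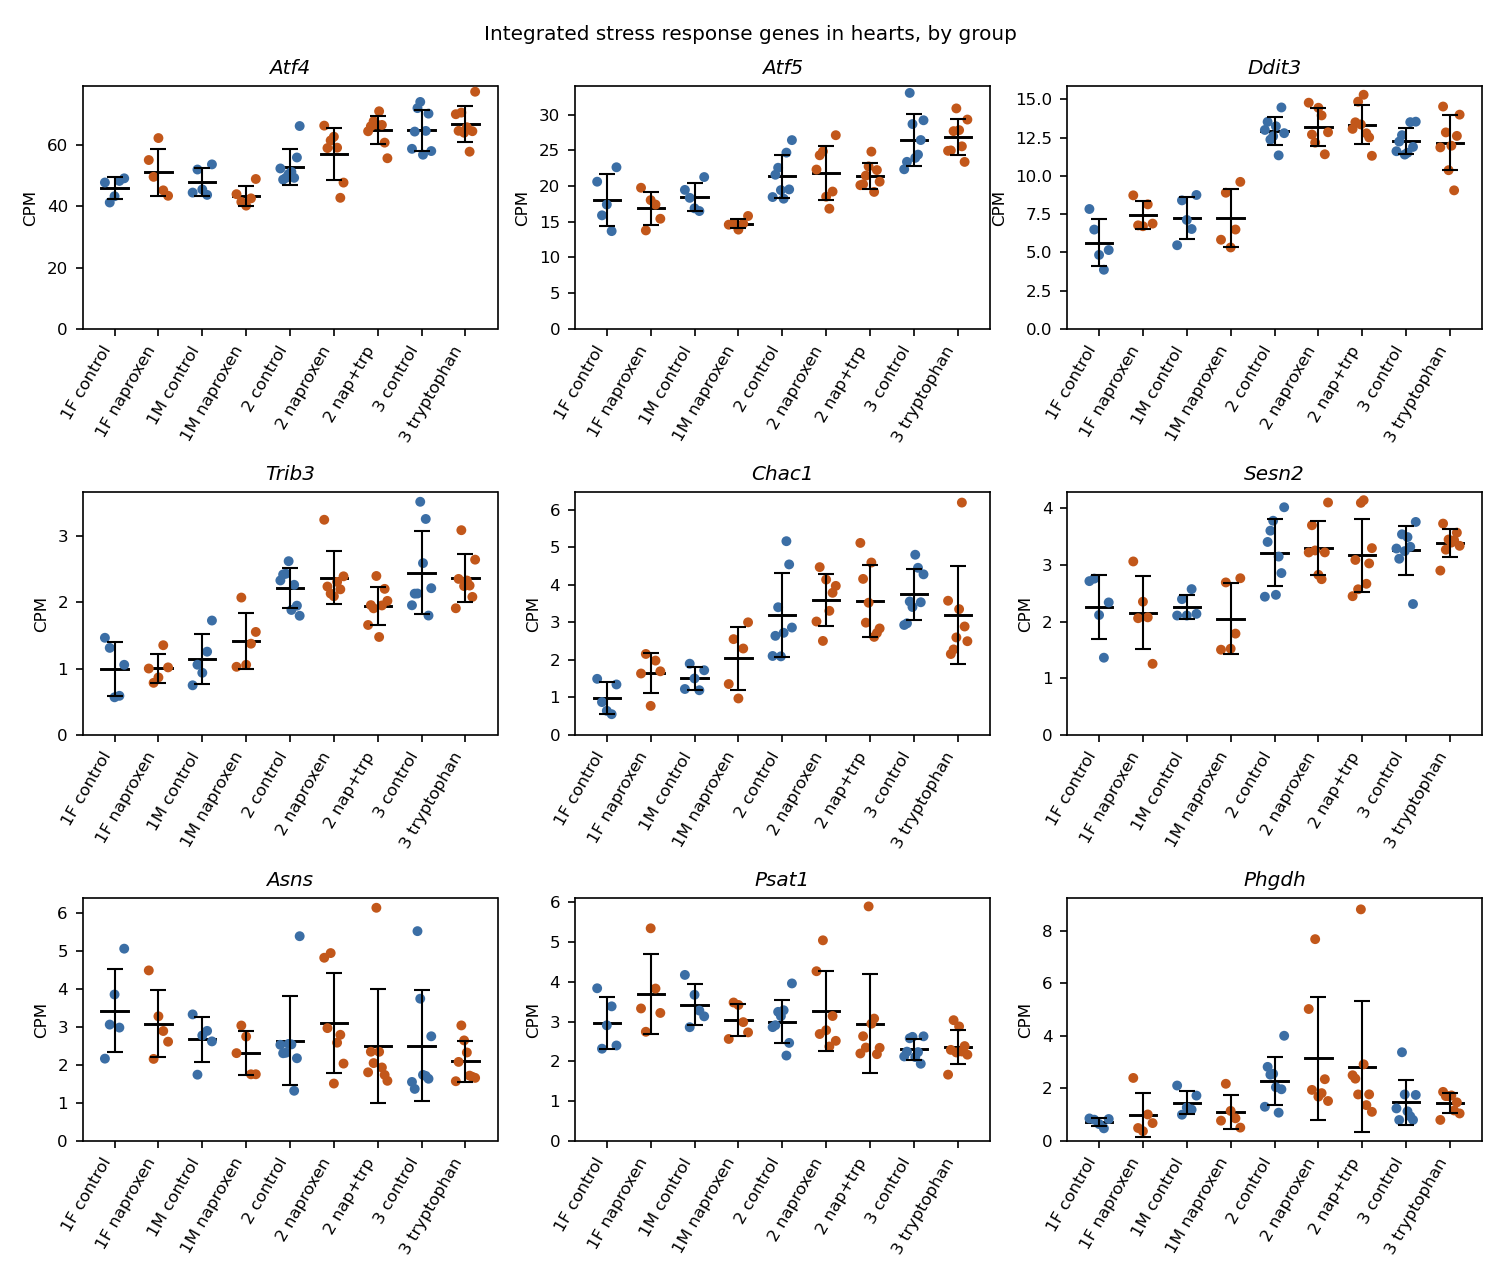
Level of each of the 9 testable genes in every heart library (points; vertical axis, CPM from 0; control groups blue, treated groups orange), with lines and whiskers for the group mean and SD. Ddit3, Trib3 and Chac1 have lower means in all groups of experiment 1 than in those of experiments 2 and 3. CPM is scaled within each experiment, and treated and control groups of the same experiment largely overlap.

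No gene of the set was called with naproxen, celecoxib or tryptophan in any of the 16 comparisons of the design. Fgf21 was too low to be tested, which leaves 9 genes in each comparison and 144 tests. By edgeR's quasi-likelihood test with Benjamini-Hochberg adjustment over all genes, 0 of the 144 had an adjusted p under 0.05, and 12 (8.3%) had an unadjusted p under 0.05, beside 7.45% of all gene tests in these comparisons. Log2 differences spanned -0.865 to 0.734. DESeq2 called 1 of the 144 (Atf4, below) and limma-voom called 0. The groups of animals overlapped in 107 of the 108 tests that compare a pair of groups, and 1 was without overlap, beside 0.379% of all gene tests in the same 12 comparisons. The treatments themselves gave few calls over all genes. In hearts, the share of all tested genes called was 0.0132% for naproxen in females of experiment 1, 0% in males, 0% for the difference between the sexes, 0% for naproxen in experiment 2, 0.255% for naproxen with tryptophan, 0.0933% for tryptophan on top of naproxen, 0.089% for naproxen pooled over experiments 1 and 2, 0.00618% for the difference in the naproxen effect between experiment 2 and the females of experiment 1, and 0% for tryptophan in experiment 3. In the jejunum it was 0.0116% for naproxen and 0% for celecoxib, for tryptophan, for naproxen with tryptophan, for tryptophan on top of naproxen, for the interaction of both, and for naproxen against celecoxib. The comparisons within an experiment share control animals, so their values stand side by side and are not independent. The median log2 difference of the 9 genes lay between -0.295 and 0.154 over the 9 heart comparisons and between -0.159 and 0.188 over the 7 jejunal ones. The median of all tested genes lay between -0.02 and 0.006 and between -0.003 and 0.022, respectively.

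Atf4, the bZIP factor that gives the pathway its name, came closest to a call. In experiment 2 its level was 48.6 CPM in the lowest control heart, 50.8 at the median and 66.1 in the highest. On naproxen it was 42.7, 59.05 and 66.2, and on naproxen with tryptophan 55.6, 66.3 and 70.9. The hearts given both agents lay mostly above the controls, but the control with 66.1 CPM fell inside their range, so the groups overlapped. Immediate early genes, which followed Atf4 between hearts (r = 0.450, rho 0.396, adjusted permutation p = 0.00173), had medians of 103.9 CPM in controls and 139.4 with both agents. The brown adipocyte list, which in hearts is mostly Cox8b, a respiratory chain subunit of heart and muscle, followed Atf4 too (r = 0.500, rho 0.552, adjusted permutation p = 0.000495), with medians of 285.8 and 399 CPM. Their part in the Atf4 value was not tested. The log2 difference between naproxen with tryptophan and control was 0.29 (SE 0.08, 8 against 8 hearts; edgeR unadjusted p = 0.0013, adjusted p = 0.103). In that comparison, 17.2% of all genes had an unadjusted p under 0.05. DESeq2 gave 0.30 with an adjusted p of 0.0245 and a fit on those groups alone gave 0.28 with 0.0479, whereas limma-voom, other scaling factors, no filter and the replicate block kept it above 0.05. Leaving out any heart gave adjusted p values from 0.0565 to 0.200 in edgeR. Naproxen alone differed from control by 0.11 (SE 0.08, adjusted p = 1), and tryptophan on top of naproxen by 0.19 (SE 0.08, adjusted p = 0.476).

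Tryptophan without naproxen left Atf4 close to its control level. In experiment 3 the control hearts held 56.8, 64.4 and 74.0 CPM (lowest, median, highest) and the tryptophan hearts 57.8, 65.1 and 77.3, a log2 difference of 0.05 (95% confidence interval -0.08 to 0.17; edgeR adjusted p = 1). The saline-injected control hearts of experiment 3 had a mean Atf4 level of 64.8 CPM (SD 6.69, n = 8). The hearts of experiment 2 given naproxen with tryptophan had 64.8 CPM (SD 4.71, n = 8). Those means come from different cohorts, with CPM scaled within each experiment, and these groups were not tested against each other. Between the controls of those cohorts, 22.9% of all tested genes were called. In experiment 1 the naproxen difference in Atf4 was 0.15 (SE 0.10) in females and -0.14 (SE 0.10) in males. The difference between the sexes was -0.30 (SE 0.14, edgeR unadjusted p = 0.0426, adjusted p = 0.759), and sex and naproxen dose cannot be told apart there. In the jejunum Atf4 lay between 71.5 and 139 CPM, its group means between 100.3 and 109 CPM, and its 4 differences from control between -0.11 and -0.06.

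Atf5, a relative of ATF4 that is likewise controlled at translation and drives mitochondrial stress genes, was the member without overlap between a pair of groups. Male hearts of experiment 1 held 16.5, 16.9, 18.4, 19.5 and 21.3 CPM in the controls. On naproxen they held 13.9, 14.6, 14.7, 14.7 and 15.8 CPM. Every naproxen heart was below every control heart, with a log2 difference of -0.33 (SE 0.12, 5 against 5; edgeR unadjusted p = 0.0148, adjusted p = 0.51). Of all genes tested in these males, 3.09% were without overlap and 7.68% had an unadjusted p under 0.05. In females of the same experiment the difference was -0.10 (SE 0.12), and the difference between the sexes was not called (-0.23, SE 0.17, edgeR adjusted p = 0.76). In experiment 2 all Atf5 differences were within 0.04 of 0.

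In the jejunum Atf5 was the most dispersed between groups. Its lowest, median and highest levels were 2.31, 4.36 and 6.99 CPM in controls, 2.32, 3.50 and 4.99 on celecoxib and 2.32, 4.43 and 13.2 on naproxen. They were 2.20, 3.12 and 5.01 CPM with tryptophan and 3.56, 5.89 and 8.57 with naproxen and tryptophan. Both groups fed naproxen had higher means (5.84 CPM each) than the celecoxib (3.56) and tryptophan (3.26) groups, and all groups overlapped. Naproxen against celecoxib gave 0.72 (95% confidence interval 0.16 to 1.28; edgeR unadjusted p = 0.013, adjusted p = 0.176), in a comparison where 18.7% of all genes had an unadjusted p under 0.05. The adjusted p passed 0.05 without the filter on low counts (0.0167) and without replicate 6 of the naproxen group (0.0489). The markers of intestinal smooth muscle followed Atf5 between jejuna (r = 0.467, rho 0.390, n = 38; permutation p = 0.00337, adjusted p = 0.0118; 0.558 without the farthest pair of jejuna and 0.145 to 0.650 within dissection batches). Their summed level had medians of 2020 CPM on naproxen and 2078 on celecoxib. The goblet cell list ran against Atf5 (r = -0.476, rho -0.294, permutation p = 0.00318, adjusted p = 0.0114; -0.232 without the farthest pair and -0.673 to 0.211 within dissection batches). Its medians were lower in both groups fed naproxen, 13700 CPM on naproxen and 12270 with tryptophan added, than on celecoxib (16760), on tryptophan (15800) and in controls (16390). The part of either list in the Atf5 values was not tested. Atf5 overlaps Nup62 and Il4i1 on the opposite strand, and the sources used here do not say whether the counting used strand.

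Ddit3 encodes CHOP, the factor that turns prolonged stress toward cell death. Female hearts of experiment 1 held 3.87, 4.83, 5.15, 6.49 and 7.83 CPM in controls and 6.71, 6.77, 6.88, 8.14 and 8.73 on naproxen. The naproxen hearts sat in the upper part of the control range or above it, and the log2 difference was 0.40 (SE 0.19, 5 against 5; edgeR unadjusted p = 0.0494, adjusted p = 0.696). In males it was -0.003 (SE 0.19), and in experiment 2, with 8 controls and 7 naproxen hearts, 0.03 (SE 0.07). The difference between experiment 2 and the females of experiment 1 was -0.38 (SE 0.18, edgeR unadjusted p = 0.0379, adjusted p = 1). Under tryptophan in experiment 3 the Ddit3 difference was -0.02 (95% confidence interval -0.19 to 0.14), and in the jejunum no difference exceeded 0.21 in size. Ddit3 overlaps Mars1 (also named Mars) and Gm4189 on the opposite strand.

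Trib3, a pseudokinase that CHOP and ATF4 induce and that feeds back on ATF4, passed with no treatment in hearts. Its naproxen difference was 0.31 in males of experiment 1 (SE 0.28, edgeR adjusted p = 0.829), 0.001 in females (SE 0.30) and 0.10 in experiment 2 (SE 0.12). In experiment 2 its lowest, median and highest levels were 1.80, 2.29 and 2.62 CPM in controls, 2.09, 2.24 and 3.24 on naproxen and 1.48, 1.95 and 2.39 on naproxen with tryptophan. The last group was the lowest of the overlapping groups, by -0.28 against naproxen (SE 0.12, edgeR unadjusted p = 0.0232, adjusted p = 0.454) and by -0.18 against control (SE 0.11, adjusted p = 0.405). In the same contrast to naproxen the Atf4 difference was 0.19, so the members did not share a sign. In the jejunum Trib3 ran from 3.80 to 29.3 CPM, with both ends in the group given naproxen and tryptophan.

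Chac1, which degrades the antioxidant glutathione, had the largest positive difference of any member with a treatment. Female hearts of experiment 1 held 0.552, 0.642, 0.874, 1.34 and 1.49 CPM in controls and 0.773, 1.64, 1.70, 1.98 and 2.16 on naproxen. Of the 5 naproxen hearts, 4 lay above all controls, and the log2 difference was 0.73 (SE 0.33; edgeR unadjusted p = 0.0365, adjusted p = 0.696). It was 0.44 (SE 0.32) in males and 0.17 (SE 0.19) in experiment 2. Pooled over these animals it was 0.40 (SE 0.16, edgeR unadjusted p = 0.0176, adjusted p = 0.518), so the direction was shared by the 3 strata but the value did not pass. With tryptophan the Chac1 difference was -0.25 in experiment 3 (SE 0.14, edgeR adjusted p = 1) and -0.62 in the jejunum (SE 0.38, adjusted p = 0.999).

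Sesn2 encodes sestrin-2, a leucine-binding inhibitor of the growth kinase complex mTORC1. Jejunal levels (lowest, median, highest) were 6.16, 6.97 and 8.97 CPM in controls and 5.68, 8.53 and 11.3 on naproxen. The naproxen jejuna spread to both sides of the controls, and the log2 difference was 0.27 (SE 0.12, 8 against 7; edgeR unadjusted p = 0.0272, adjusted p = 0.272). Of all genes, 16% had an unadjusted p under 0.05 in this comparison. With tryptophan added to naproxen the range was 6.82 to 8.57 CPM, and the difference from control was 0.11 (SE 0.12). In hearts no Sesn2 difference with treatment exceeded 0.14 in size. Sesn2 overlaps Gm12981, which the annotation places on the same strand.

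Asns, Psat1 and Phgdh encode enzymes that make asparagine and serine. Their heart levels were low and varied severalfold between animals of the same group. In experiment 2 Asns held 1.32, 2.42 and 5.38 CPM (lowest, median, highest) in controls, 1.51, 2.79 and 4.94 on naproxen and 1.58, 1.99 and 6.13 on naproxen with tryptophan. Phgdh, the entry enzyme of serine synthesis, held 1.07, 2.28 and 4.00 CPM in those controls, 1.52, 1.94 and 7.67 on naproxen and 1.11, 2.07 and 8.80 with both. The groups overlapped almost fully, and the differences were 0.23 (SE 0.31) and -0.08 (SE 0.30) for Asns and 0.47 (SE 0.43) and 0.31 (SE 0.41) for Phgdh. Psat1, the next enzyme after Phgdh, differed by 0.12 (SE 0.20) and -0.02 (SE 0.20). Under tryptophan in experiment 3 the differences were -0.15 (SE 0.16) for Asns, 0.03 (SE 0.11) for Psat1 and 0.05 (SE 0.23) for Phgdh.

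In the jejunum the same enzymes were higher in CPM. Psat1 varied more between jejuna than between hearts, with a residual SD of 0.466 on the log2 scale against 0.274, 0.389 and 0.201 in heart experiments 1 to 3, while Phgdh varied less (0.321 against 0.501 to 0.804). Asns had lowest, median and highest levels of 12.3, 18.0 and 23.8 CPM in controls, 18.8, 20.7 and 26.4 on celecoxib and 9.51, 16.5 and 32.6 on naproxen. The celecoxib jejuna were the tightest and the naproxen jejuna the widest group. Celecoxib differed from control by 0.27 (SE 0.16, edgeR adjusted p = 0.957) and naproxen differed from celecoxib by -0.39 (SE 0.17, unadjusted p = 0.0317, adjusted p = 0.227). Psat1 and Phgdh had differences from control between -0.28 and 0.13, none called. Psat1 overlaps the processed pseudogene Gm3329 on the opposite strand.

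Fgf21, a stress hormone that ATF4 induces in liver and muscle, was close to absent. It was listed at 0 in 49 of 59 hearts and in 32 of 38 jejuna, with at most 2 counts in a heart, at most 4 in a jejunum and 23 counts in all libraries together. A count of 0 allows up to 3 counts, for counting error alone, so no difference between groups was detectable at this depth.

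**Figure D2:**
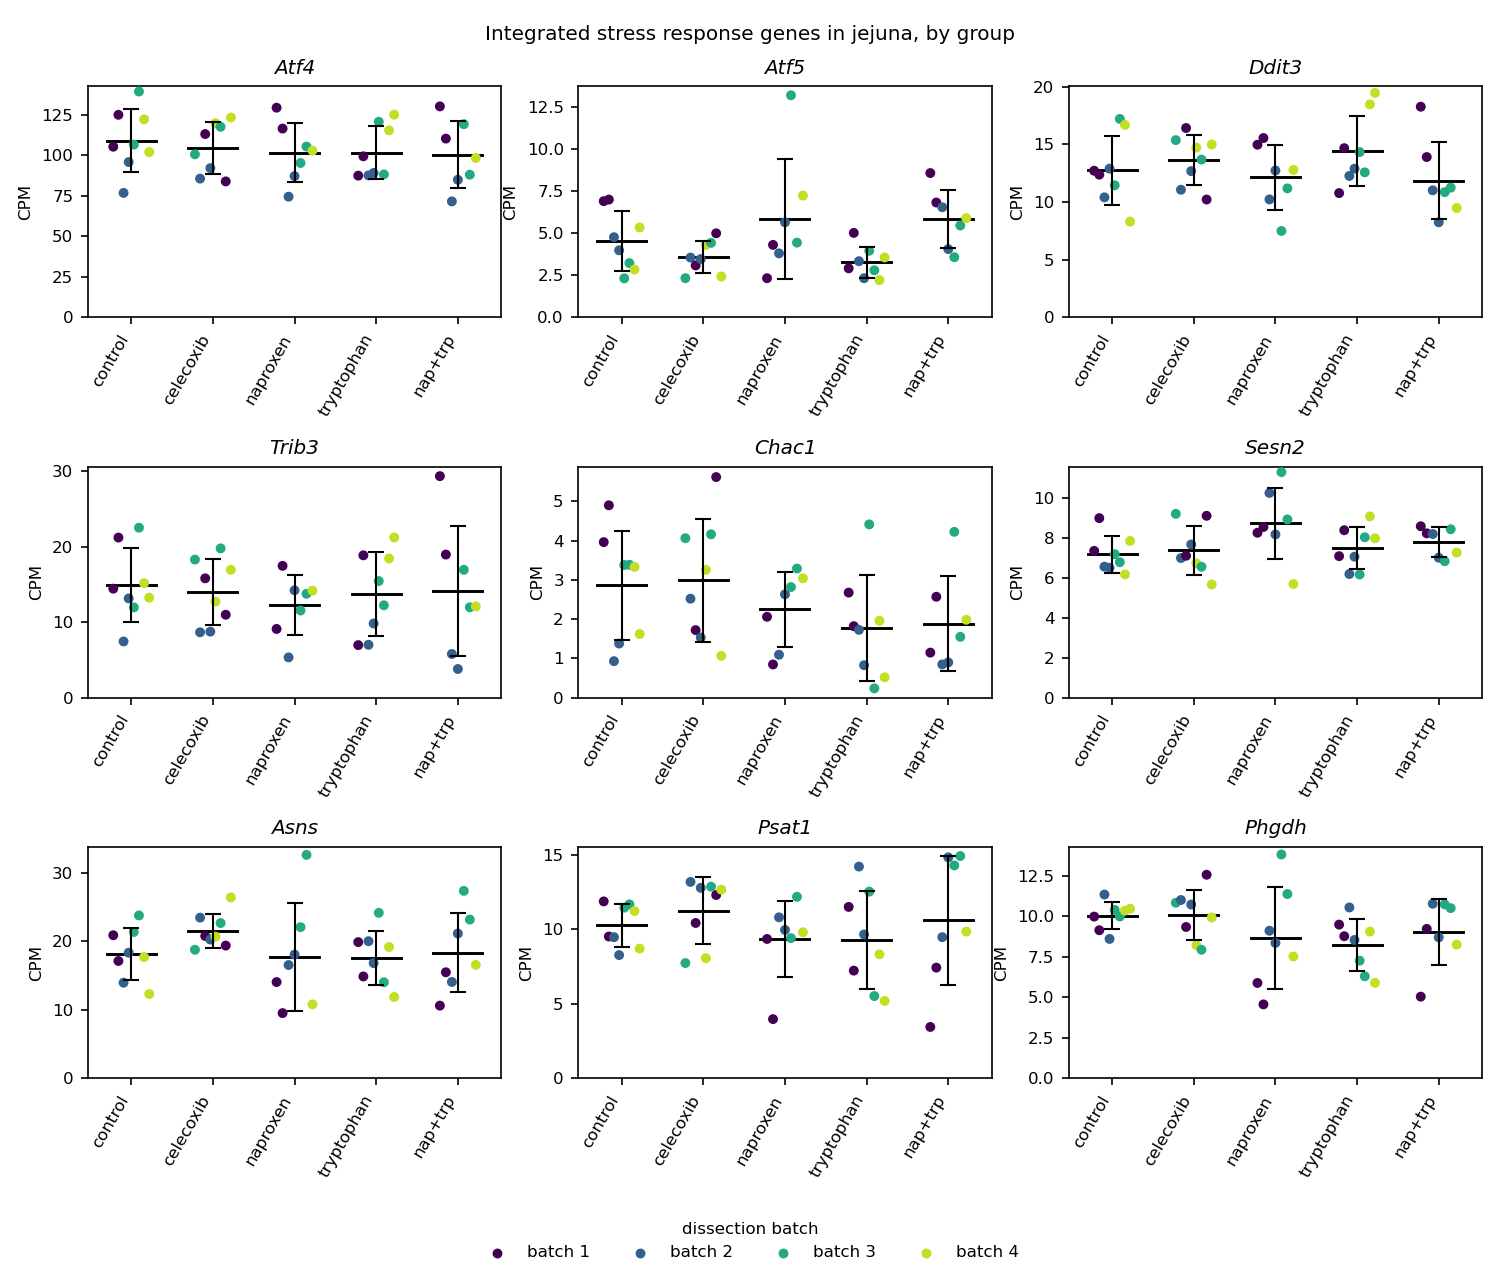
Level of each of the 9 testable genes in every jejunal library (points, coloured by dissection batch; vertical axis, CPM from 0), with lines and whiskers for the group mean and SD. The 5 groups overlap for every gene, and the naproxen group holds the highest Atf5 value, 13.2 CPM.

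The size of change that the data leave possible differed between genes and experiments. For tryptophan in experiment 3, the 95% confidence intervals of all 9 tested genes lay within a 1.5-fold change. For naproxen in experiment 2 this held for 7 of 9 genes, and for naproxen with tryptophan also for 7 of 9. In the small groups of experiment 1 it held for 3 of 9 in females and 4 of 9 in males. In the jejunum it held for 5 of 9 with celecoxib, 4 with naproxen, 4 with tryptophan and 6 with naproxen and tryptophan. Phgdh had the widest interval in every planned heart comparison and Chac1 in every jejunal one.

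**Figure D3:**
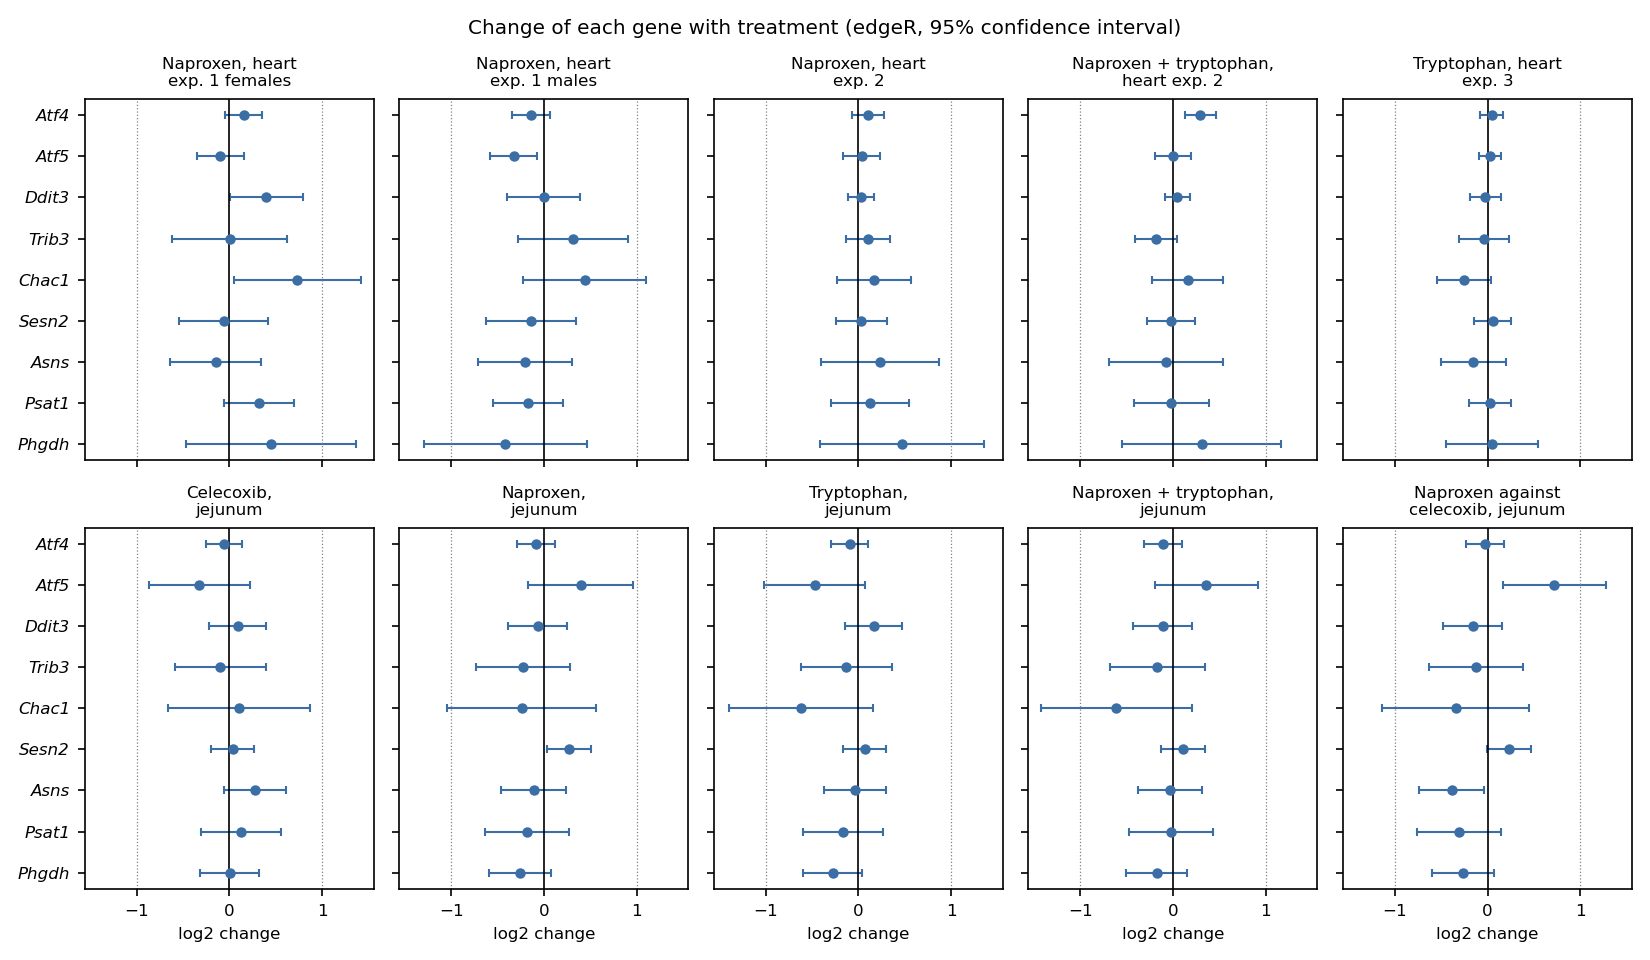
Log2 difference of each gene (points) with its 95% confidence interval (bars) for the 9 comparisons of treatment with control and for naproxen against celecoxib, edgeR. Most intervals cross 0, Phgdh has the widest in hearts and Chac1 in the jejunum, and Atf4 with naproxen and tryptophan in hearts lies at 0.29.

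The genes around the pathway gave few calls with treatment as well. Across 13 lists that cover the eIF2alpha kinases and phosphatase regulators, the eIF2 and eIF2B subunits, bZIP partners, ATF4-driven transporters, enzymes and tRNA synthetases, the mitochondrial relay, the IRE1 and ATF6 branches, FGF21 receptors, clock genes and immediate early genes, 102 to 104 genes were tested per comparison. By edgeR none was called in 15 of the 16 treatment comparisons. The exception was the clock gene Per2, whose naproxen difference was lower in experiment 2 than in the females of experiment 1 by -0.98 (SE 0.13, adjusted p = 0.000669). An unadjusted edgeR p under 0.05 was held by 1 to 27 genes per comparison. The count was 21 of 102 for naproxen in females of experiment 1, beside 7.14% of all genes. For naproxen against celecoxib it was 27 of 104, beside 18.7%. For naproxen in experiment 2 it was 3 of 104, beside 3.63%, and for tryptophan in the jejunum 1 of 104, beside 2.65%. DESeq2 called 9 of 104 for naproxen with tryptophan in hearts, where it called 2.97% of all genes, and 5 of 102 for naproxen in females of experiment 1, where it called 0.356%. It called at most 2 in each of the others, while limma-voom called only the 1 in the comparison of experiments. The list medians stayed between -0.454 and 0.292 in hearts and between -0.286 and 0.409 in the jejunum, and the widest of these were the short lists of immediate early genes and bZIP partners.

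Larger differences separated control hearts of different experiments. These comparisons, and those of dissection batches below, were chosen after the data were seen. Between the saline-injected control hearts of experiment 2 and the uninjected control females of experiment 1, 5 of the 9 genes were called, all higher in experiment 2, where 60.5% of all tested genes were called in either direction. Ddit3 held 11.3, 12.9 and 14.5 CPM (lowest, median, highest) in experiment 2 against 3.87, 5.15 and 7.83 in experiment 1, without overlap, as in 24.5% of all tested genes. Those CPM values were scaled within each experiment. The log2 difference of Ddit3, from a joint fit, was 1.10 (SE 0.12, 8 against 5, edgeR adjusted p = 5.46e-07). Chac1 differed by 1.60 (SE 0.26, adjusted p = 2.33e-05), Phgdh by 1.57 (SE 0.37, adjusted p = 0.000844), Trib3 by 1.04 (SE 0.22, adjusted p = 0.00032) and Sesn2 by 0.42 (SE 0.16, adjusted p = 0.0304). Atf4 itself was not among the called genes (0.12, SE 0.08, adjusted p = 0.214), nor were Atf5 (0.16, SE 0.12), Psat1 (-0.07, SE 0.14) and Asns (-0.46, SE 0.33). The share of members called was near that of all genes, and the median member difference was 0.42 beside -0.03 for all genes. The Sesn2 call was lost with the replicate block (adjusted p = 0.11) and without control replicate 8 of experiment 2 or female control replicate 3 or 4 of experiment 1 (0.0567 to 0.119).

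In the same comparison of controls, 72 of 103 pathway genes were called, beside 60.5% of all tested genes. Of the 72, 40 were higher and 32 lower in experiment 2. The leading calls were Dnajb9, an endoplasmic reticulum chaperone of the IRE1 branch (-1.23, SE 0.12), Eif4ebp1, an ATF4-induced brake on translation (1.21, SE 0.13), the receptor Fgfr3 (1.53, SE 0.17) and the clock gene Clock (-0.81, SE 0.10). Among the 9 other ATF4 targets, 6 were higher and 1 lower. Among the 8 genes of the ATF6 branch and chaperones, 5 were lower and 1 higher. Only these lists are broken down here, and no rule set beforehand picked them. Genes singled out after their values were seen include Gdf15 (2.09) and Shmt2 (1.02) on the high side and Hspa5 (-0.74), Hsp90b1 (-0.84) and Pdia4 (-0.65) on the low side. Several marker lists also had higher sums in experiment 2 without overlap, in CPM scaled within each experiment. Whether the narrower gaps remain under joint scaling was not tested. The cardiomyocyte list summed to 27260 to 35960 CPM in experiment 1 control females and 38660 to 60260 in experiment 2 controls. The skeletal muscle list, mostly Ckm in hearts, held 145.4 to 523 against 761.8 to 1151 CPM, and the brown adipocyte list, in most hearts mainly Cox8b, 40.34 to 189.7 against 226.5 to 430. The smooth muscle list, mostly the desmin gene Des, held 396.3 to 989.6 against 1204 to 1631 CPM, with 3 of its 6 genes called higher, and the clock list 751 to 949.3 against 992.5 to 1167. The mitochondrial share of counts was 24.39% to 39.23% over all hearts of experiment 1 and 18.48% to 30% over those of experiment 2. Cohort, injection and sequencing depth cannot be told apart in this comparison, and the part of the markers in it was not tested.

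Between the saline-injected controls of experiments 3 and 2, 2 of 9 genes were called, beside 22.9% of all tested genes. Atf4 was higher in experiment 3 by 0.25 (SE 0.07, 8 against 8; edgeR adjusted p = 0.0145). Psat1 was lower by -0.42 (SE 0.12, adjusted p = 0.0158), with 1.94 to 2.63 CPM in experiment 3 against 2.15 to 3.96 in experiment 2, so these groups overlapped. Of the 5 genes called between experiments 2 and 1, Ddit3, Trib3, Chac1 and Sesn2 differed by at most 0.18 in size between experiments 3 and 2. Phgdh was lower in experiment 3 by -0.69 (SE 0.28, edgeR adjusted p = 0.0832), which limma-voom called (adjusted p = 0.042). With a heart left out its edgeR adjusted p ran from 0.00753 (without control replicate 6 of experiment 3) to 0.174 (without control replicate 8 of experiment 2), and it was also under 0.05 without control replicate 6 of experiment 2 (0.0452). Of 103 pathway genes, 34 were called (16 higher, 18 lower), led by the clock gene Arntl (2.07, SE 0.27), the immediate early genes Jun (0.89, SE 0.12) and Junb (1.99, SE 0.28) and the clock gene Cry1 (-0.69, SE 0.10).

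Dissection batch, a number in the labels for experiments 3 and 4, took a larger share of the variance than treatment for several genes. The shares are raw sums of squares with batch entered first, and in experiment 3 batch has more degrees of freedom than treatment. Asns in experiment 3 had 69.7% of its log2 variance between batches and 1.402% between treatments. In the jejunum the batch and group shares were 48.3% and 2.56% for Atf4 and 45.1% and 2.44% for Trib3, while for Atf5 they were 4.27% and 27.9%. In the hearts of experiment 3, 1 of 9 genes was called by edgeR's test over the batch terms, beside 0.702% of all genes: Asns, with a spread of 1.17 between the highest and lowest batch on the log2 scale (adjusted p = 0.0456). Its means were 1.64, 3.74, 1.87 and 1.93 CPM in batches 1 to 4 (SD 0.305, 1.27, 0.303 and 0.547, n = 4 each). Batch 2 was high, and every one of its hearts (2.64 to 5.52 CPM) exceeded all of batches 1 and 3 and all but 1 of batch 4. The white adipocyte markers had medians of 23.8, 129 (batch 2), 27.2 and 34.1 CPM in the same order. All 6 had an unadjusted p under 0.05 in edgeR's test, with none called. An unadjusted p under 0.05 was also found for 35 of 102 pathway genes and 4 of the 9 members. The share of all genes is not given here. Other lists stood apart in batch 2 too, among them the erythroid list (median 5901 CPM against 2170 to 2853) and the clock list (802 against 897 to 1001). The Asns call was lost in limma-voom (adjusted p = 0.0574) and when 12 of the 16 hearts were left out in turn (0.0625 to 0.125), namely every control but replicate 3 and tryptophan replicates 2, 3, 4, 5 and 7. Of 102 pathway genes, 6 were called, with Herpud1 (0.55), Atf3 (0.94), Cry1 (0.52) and Per1 (0.46) in the lead.

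In the jejunum 3 of 9 genes were called between dissection batches, beside 19.8% of all genes. Atf4 held means of 110, 84.5, 108 and 114 CPM in batches 1 to 4 (SD 16.3, 7.84, 16.3 and 10.8; n = 10, 10, 10 and 8), a spread of 0.42 (edgeR adjusted p = 0.00599). Trib3 held 16.3, 8.39, 15.4 and 15.5 CPM, a spread of 0.96 (adjusted p = 0.0101), so batch 2 was the low batch of both genes. Asns was highest in batch 3 (22.99 CPM) and between 16.2 and 18.3 CPM in the others, a spread of 0.53 (adjusted p = 0.0297), which was lost without naproxen replicate 3, tryptophan replicate 5 or naproxen with tryptophan replicate 4 (0.0545 to 0.0764). Chac1 was also lowest in batch 2 (1.44 CPM against 2.10 to 3.15), with a spread of 1.13 that was not called (adjusted p = 0.0634; called by DESeq2, 0.0293). Batch 2 had the highest median of Paneth cell markers (14600 CPM against 5886 to 10320), the lowest of enterocyte markers (23570 against 31600 to 35690) and the lowest of clock genes (596 against 840 to 894). Of 104 pathway genes, 37 were called, led by the clock genes Tef (0.87), Per3 (1.24), Per2 (0.96) and Ciart (1.81), and 11 of the 16 clock genes were among them. Every treatment comparison of experiments 3 and 4 keeps dissection batch in the fit, and leaving it out gave no member call.

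Pairs of members were also compared from animal to animal, once group and dissection batch means were removed. In each tissue 36 pairs were correlated, and p values were adjusted over all 72. The farthest pair of libraries, left out in some values below, is farthest from the median of the first-named gene alone. In 59 hearts, 13 pairs had an adjusted p under 0.05, 12 positive and 1 negative, and the median r of all pairs was 0.234. In 38 jejuna, 13 pairs also passed, 9 positive and 4 negative, and the median r was -0.056. By Spearman's rho 11 pairs passed in each tissue. Each adjusted permutation p in this text is that of r unless the sentence ties it to rho. Related pairs were common among all genes. Of all pairs of genes at 1 CPM or more, 37.9% in hearts had an r at least as large in size as the smallest member r that passed (0.327), beside 36.1% of the member pairs, and 29.1% in jejuna (0.406), beside 36.1%. Of those pairs of all genes 50.8% were positive in hearts and 51.3% in jejuna.

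In hearts the highest r stood among the synthesis enzymes. Asns and Phgdh had r = 0.792 and rho = 0.688 (permutation p = 1e-05, the smallest that the resamples can give, adjusted p = 0.00012), 0.737 without the farthest pair of hearts and 0.578, 0.876 and 0.866 within experiments 1, 2 and 3. Asns and Psat1 had r = 0.657 (rho 0.555, adjusted permutation p = 0.00012), but 0.141 within experiment 1 against 0.878 within experiment 2. Among the stress effectors, Ddit3 and Trib3 had r = 0.625 (rho 0.497, adjusted permutation p = 0.00012, 0.540 without the farthest pair of hearts). Within experiments these reached 0.817, -0.116 and 0.555, so the sign turned in experiment 2. Ddit3 and Chac1 had r = 0.394 (adjusted permutation p = 0.00781) and a rho of 0.289 that did not pass (adjusted permutation p = 0.0735). Their r split further within experiments, into 0.730, 0.099 and -0.628. Both relations of Ddit3 were strongest in experiment 1 and did not hold in every experiment. Atf4 followed Ddit3 weakly (r = 0.345, rho 0.396, adjusted permutation p = 0.0245, 0.246 to 0.620 within experiments) and passed with no other member.

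**Figure D4:**
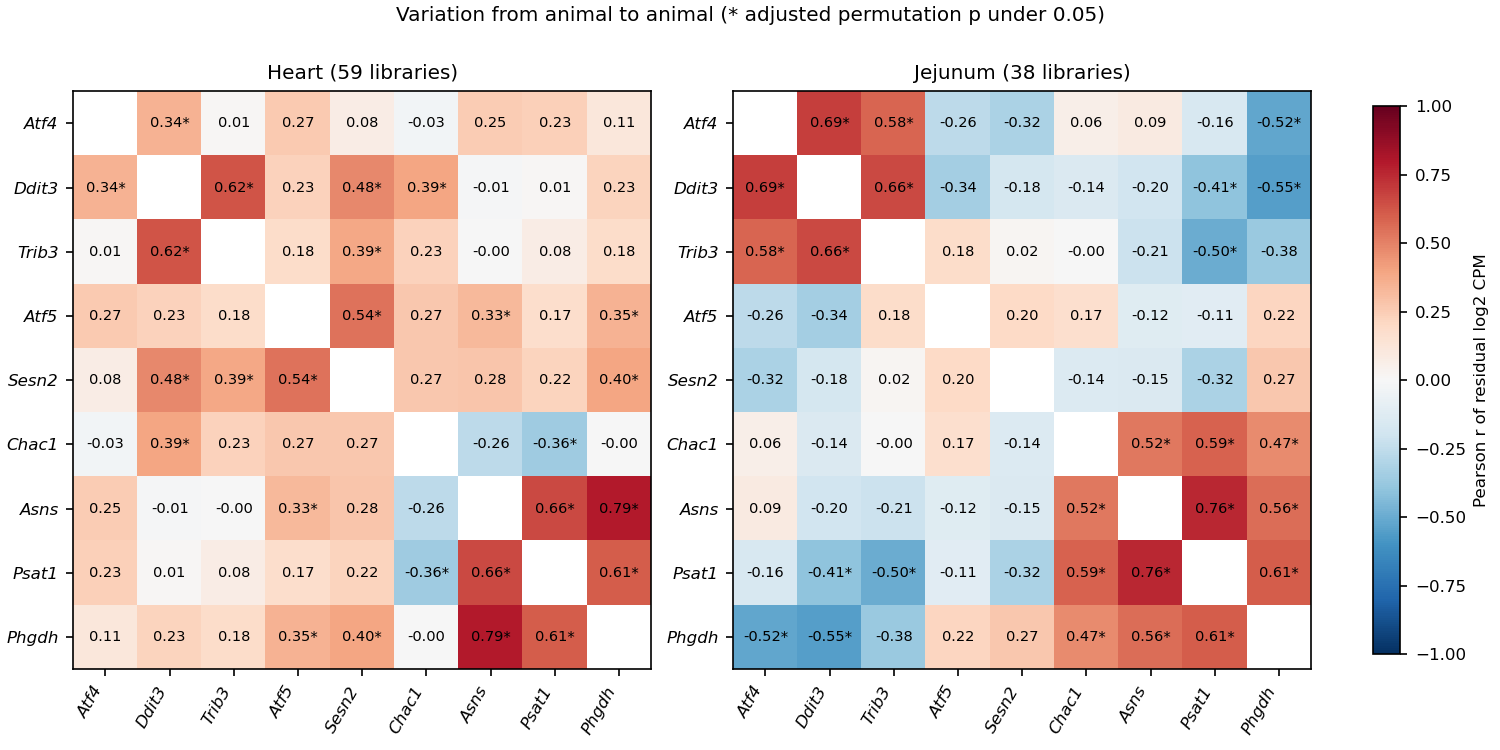
Pearson r for each pair of the 9 genes over 59 hearts (left) and 38 jejuna (right), from log2 CPM with group and dissection batch means removed; stars mark an adjusted permutation p under 0.05. In both tissues Asns, Psat1 and Phgdh are positively related, and in the jejunum so are Atf4, Ddit3 and Trib3, with 4 of their 9 pairs with the enzymes starred and negative.

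In jejuna Atf4, Ddit3 and Trib3 were positively related to each other: Atf4 with Ddit3 at r = 0.690 (rho 0.619, adjusted permutation p = 0.00012), Ddit3 with Trib3 at 0.660 (rho 0.604, adjusted permutation p = 0.00027) and Atf4 with Trib3 at 0.579 (rho 0.635, adjusted permutation p = 0.00078). Without the farthest pair of jejuna these were 0.612, 0.697 and 0.494, and within the 4 dissection batches they ran from 0.212 to 0.903, from 0.657 to 0.853 and from 0.463 to 0.769. Asns with Psat1 reached 0.757 (rho 0.721, adjusted permutation p = 0.00012, 0.688 without the farthest pair, 0.431 to 0.930 within batches), and Psat1 with Phgdh 0.609 (rho 0.435, adjusted permutation p = 0.00048). Of the 9 pairs that join Atf4, Ddit3 or Trib3 with Asns, Psat1 or Phgdh, 4 passed, all negative, and 5 did not, with r from -0.375 to 0.093. Of the 4, those with Psat1 were Trib3 at -0.498 and Ddit3 at -0.406 (rho -0.389 and -0.344, adjusted permutation p of r = 0.00576 and 0.0328). By rho neither passed (adjusted permutation p = 0.0503 and 0.0881). Those with Phgdh were Ddit3 at -0.552 (rho -0.428, adjusted permutation p = 0.0018) and Atf4 at -0.519 (rho -0.523, adjusted permutation p = 0.00355). Without the farthest pair of jejuna the pairs with Psat1 were -0.313 and -0.522, and those with Phgdh -0.488 and -0.425. Both pairs with Phgdh were negative within every dissection batch, at -0.835 to -0.235 and -0.820 to -0.202. Atf4 with Asns, in contrast, ran from -0.564 to 0.634 within batches, and Atf4 with Psat1 from -0.618 to 0.424. The mitochondrial share of counts, which ran from 3.11% to 12.5% of a jejunal library, followed Phgdh at r = -0.696 (rho -0.561, adjusted permutation p = 0.000132), Atf4 at 0.598 (rho 0.554, adjusted permutation p = 0.000377) and Ddit3 at 0.543 (rho 0.497, adjusted permutation p = 0.0024). With its part removed, Atf4 with Phgdh went from -0.519 to -0.180 and Ddit3 with Phgdh from -0.552 to -0.289. Chac1 was positively related to the enzymes, at r = 0.588 with Psat1, 0.524 with Asns and 0.469 with Phgdh (adjusted permutation p = 0.00078, 0.00322 and 0.00902). By rho its relation with Phgdh did not pass (0.348, adjusted permutation p = 0.084).

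These relations ran beside the cell type markers of the same tissue pieces. Over both tissues 198 relations of a member with a summed marker list, the mitochondrial share or library size were computed, of which 77 had an adjusted p under 0.05. By the size of the smallest r that passed (0.327 in hearts, 0.380 in jejuna), these were 39.4% and 38.4% of the members' relations, beside 29.1% and 32% of those of all genes at 1 CPM or more with the same measures. In hearts the white adipocyte list (Adipoq, Plin1, Lep, Cfd, Adig, Retn; all 6 at 0.1 CPM or more) summed to 3.37 CPM in the lowest heart and 414 in the highest. It followed Phgdh at r = 0.841 (rho 0.800, adjusted permutation p = 0.000132, 0.820 without the farthest pair, 0.726 to 0.921 within experiments) and Asns at 0.833 (rho 0.798, adjusted permutation p = 0.000132, 0.828 without the farthest pair, 0.838 to 0.857 within experiments). Psat1 followed it at 0.543 (rho 0.472, 0.478 without the farthest pair, 0.170 to 0.745 within experiments), and no other member exceeded 0.236 in size. With the part shared with these markers removed, Asns with Phgdh went from 0.792 to 0.307 and Psat1 with Phgdh from 0.606 to 0.328. Ddit3 with Trib3 was 0.625 before and after.

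Ddit3 and Chac1 ran beside a smooth muscle list that in hearts is mostly Des. The smooth muscle list (Myh11, Actg2, Acta2, Des, Cnn1, Tagln) followed Ddit3 at r = 0.729 (rho 0.509, adjusted permutation p = 0.000132, 0.655 without the farthest pair) and Chac1 at 0.672 (rho 0.638, adjusted permutation p = 0.000132, 0.599 without the farthest pair). Within experiments the Ddit3 relation ran from -0.018 to 0.935 and the Chac1 relation from 0.366 to 0.834. In hearts, however, Des made up 61.1% to 90.4% of the summed list (median 84.5%), and desmin is an intermediate filament protein of cardiomyocytes as well. The list was therefore split after its values were seen, as a description with no test. Des alone followed Ddit3 at r = 0.685 and Chac1 at 0.614 (rho 0.455 and 0.553), and the other 5 genes of the list followed them at 0.198 and 0.257 (rho 0.192 and 0.272). The 5 genes followed Asns at 0.608 and Phgdh at 0.566 instead (rho 0.460 and 0.459). With the part of the whole list removed, Ddit3 with Trib3 was 0.381 and Ddit3 with Chac1 was -0.188. With that of the 5 genes removed, they were 0.610 and 0.363, and with that of the cardiomyocyte list removed, 0.615 and 0.294.

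The brown adipocyte list (Cidea, Cox8b, Ucp1, Elovl3, Otop1) followed Ddit3 at 0.682 (rho 0.724, adjusted permutation p = 0.000132, 0.641 without the farthest pair, 0.555 to 0.732 within experiments). Cox8b made up 22% to 96% of its sum in hearts (median 87.4%). Split in the same way, Cox8b alone followed Ddit3 at r = 0.793 (rho 0.764) and Atf4 at 0.569 (rho 0.591), while the other 4 genes followed Ddit3 at 0.272 (rho 0.295) and Atf4 at 0.162 (rho 0.094). The 4 genes followed Asns at 0.691 and Phgdh at 0.609 (rho 0.662 and 0.556), as the white adipocyte list did. With the part of the whole list removed, Atf4 with Ddit3 went from 0.345 to 0.006, and with that of Cox8b alone to -0.213.

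**Figure D5:**
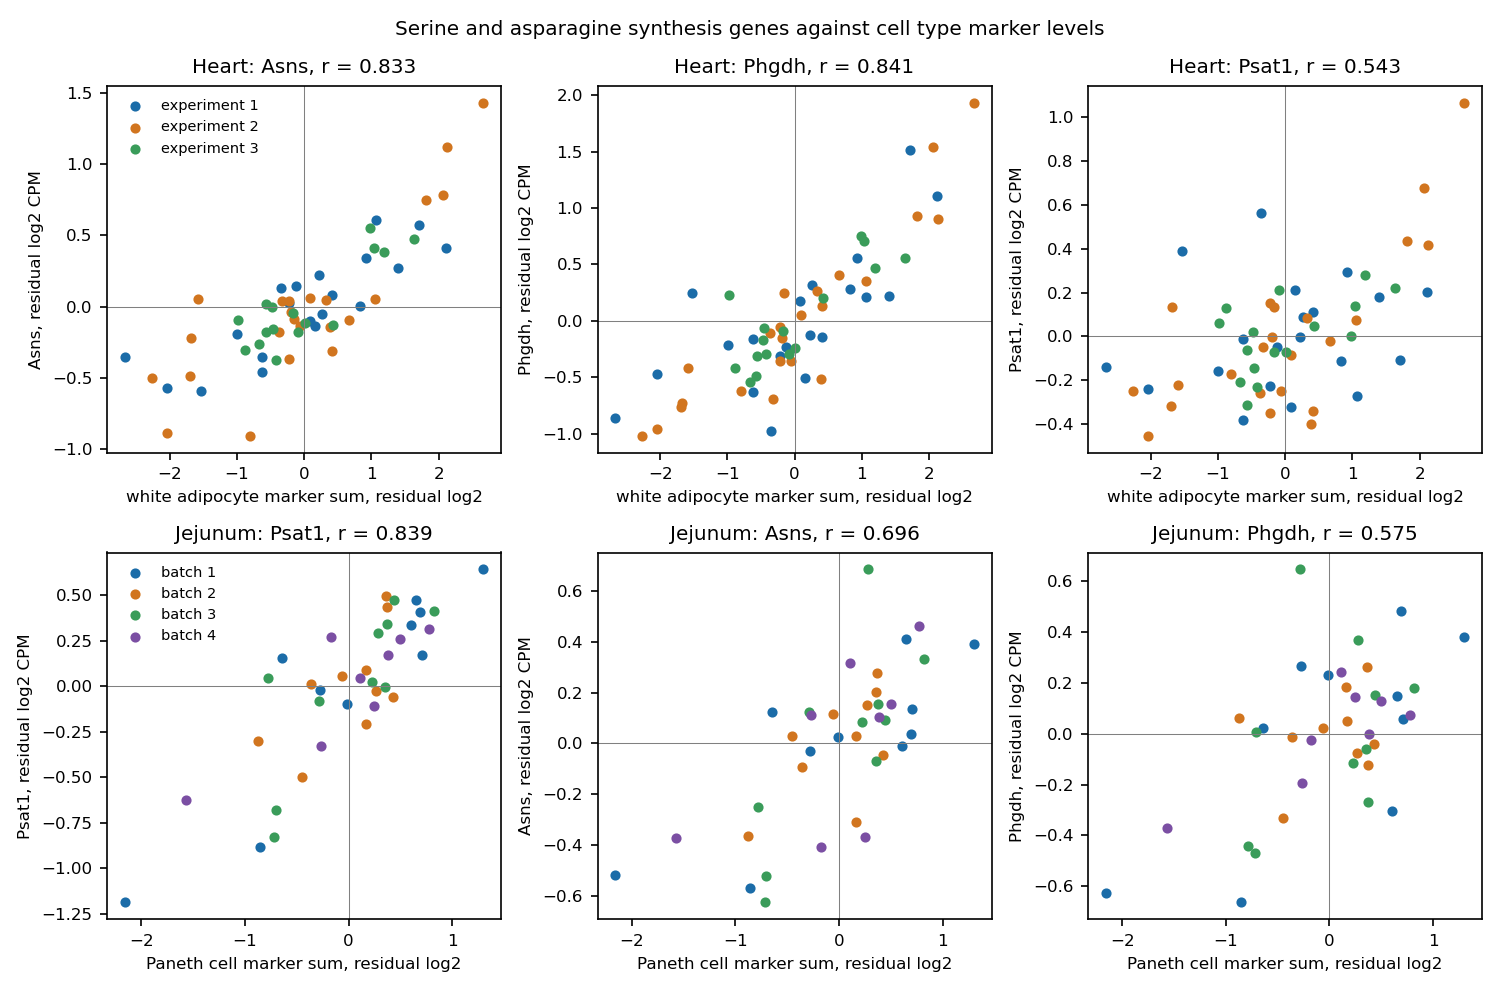
Deviation of members (log2 CPM, vertical) against the deviation of a summed marker list (log2 CPM, horizontal) from group and dissection batch means, 1 point per library, coloured by experiment or batch. Asns, Psat1 and Phgdh rise with the white adipocyte list in hearts and with the Paneth cell list in jejuna.

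In jejuna the synthesis enzymes followed the Paneth cell list (Lyz1, Itln1, Defa17, Defa24, Mmp7, Ang4), the secretory cells at the crypt base. Its sum ran from 1089 to 22180 CPM. Psat1 followed it at r = 0.839 (rho 0.787, adjusted permutation p = 0.000132, 0.769 without the farthest pair, 0.653 to 0.914 within batches). Asns followed it at 0.696 (rho 0.672, adjusted permutation p = 0.000132, 0.659 without the farthest pair, 0.594 to 0.812 within batches), and Phgdh at 0.575 (rho 0.436, adjusted permutation p = 0.000894, 0.436 without the farthest pair, 0.234 to 0.819 within batches). Trib3, in contrast, followed the enterocyte list at 0.718 (rho 0.762, adjusted permutation p = 0.000132, 0.741 without the farthest pair, 0.443 to 0.902 within batches), as did Ddit3 at 0.624 (rho 0.556, adjusted permutation p = 0.000554) and Atf4 at 0.584 (rho 0.634, adjusted permutation p = 0.000819). With the Paneth part removed, Asns with Psat1 went from 0.757 to 0.444 and Psat1 with Phgdh from 0.609 to 0.283. Trib3 with Psat1 went from -0.498 to -0.093 and Ddit3 with Psat1 from -0.406 to -0.171. With the enterocyte part removed, Atf4 with Trib3 went from 0.579 to 0.281 and Atf4 with Ddit3 from 0.690 to 0.513. The Paneth list had medians of 6559 CPM on naproxen and 11030 on naproxen with tryptophan, against 13820 in controls, 15170 on celecoxib and 10380 on tryptophan. Its part in the naproxen values of the enzymes was not tested.

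The genes whose deviations were most like the mean of the 9 members differed between tissues. Among 12220 genes in 59 hearts they were Nbl1 (r = 0.883), Nadk (0.859), Tspo (0.856), Ppm1m (0.854) and Bscl2 (0.832). Among 13867 genes in 38 jejuna they were Nudcd2 (0.743), Aimp2 (0.706), Slc7a1 (0.697), Mars1 (0.690) and Ruvbl2 (0.676). Within the set, Phgdh (r = 0.598) and Sesn2 (0.597) followed the mean of the other members most closely in hearts, and Chac1 (0.530) and Asns (0.425) in jejuna. Atf4 followed it at 0.266 in hearts and 0.049 in jejuna.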

How the data were processed

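Estimated counts per gene were deposited by the authors for 97 libraries. Per the submitters' processing notes, Salmon 1.9.0, R 4.2.2 and GRCm38 were used. The summing of transcripts to genes, and any use of strand, are not given in the sources used here. Of all deposited values, 24.66% were not whole, and all were rounded. Counts were fitted with edgeR 4.0.16 (robust quasi-likelihood, TMM factors, genes filtered at a minimum count of 10; R 4.3.3), all groups of an experiment sharing an estimate of spread, with dissection batch as a term in experiments 3 and 4, and adjusted by Benjamini-Hochberg over all genes. A call is an adjusted p under 0.05. The fits of tryptophan in experiment 3 and of naproxen in jejunum were also run on simulated counts with known changes. Those counts held no batch or cell type differences, so these runs do not show how the fits behave under such differences. Levels are CPM with TMM factors estimated within each experiment, so levels of different experiments were not scaled jointly. Per-length levels divide by exon bases of the annotation. Correlations used log2 CPM (prior count 2) with group and batch means removed, 100000 resamples, two-sided, in Python 3.11.15 with numpy 2.4.6. The farthest pair of libraries was chosen by the first-named gene of a pair of members, or by the marker list. Extremes of the other gene stayed in. Alternatives were DESeq2 1.42.0, limma-voom 3.58.1, other size factors, no filter, a replicate block, no batch term, only the groups compared, and each library left out.

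The members and gene lists were chosen with earlier results of these data known. All 10 members are named; of the pathway lists, up to 4 called genes per comparison, smallest p first, and of like genes the 5 with the highest r per tissue among genes of at least 1 CPM, predicted genes aside. The comparisons of control hearts and of dissection batches, the marker relations and the split of marker lists into single genes were added after seeing the data. Replicate numbers do not pair animals, per the labels; libraries of a group differed by more than sampling noise.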

Additional observations from a re-analysis of the deposited data

Results flagged for a closer look

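Within the 14 treatment groups of 5, 7 or 8 libraries, 10 member values lay far from the rest of their group, out of 126 combinations of gene and group checked. For independent, normally distributed values, chance would put about 1 in 20 combinations in this list. The rule was applied to CPM on the linear scale, and members were correlated, so the rate by chance here is not known. Replicate 8 of the experiment 2 control hearts was high in Atf4 (66.11 CPM, others 48.65 to 55.86) and in Asns (5.385 CPM, others 1.319 to 2.551), and it had the highest white adipocyte sum of its group (310.8 CPM). Replicate 4 of the hearts given naproxen and tryptophan was high in all 3 synthesis enzymes: Asns at 6.133 CPM (others 1.581 to 2.346), Psat1 at 5.901 (others 2.182 to 3.078) and Phgdh at 8.805 (others 1.105 to 2.912). Its white adipocyte sum was also the highest of its group (413.7 CPM). Replicate 6 of the experiment 3 control hearts was high in Phgdh (3.371 CPM, others 0.7938 to 1.766), again with the highest white adipocyte sum of its group (260.2 CPM). The part of adipocyte RNA in these values was not tested further.

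In the jejunum, replicate 7 of the naproxen group was low in Psat1 (3.971 CPM, others 9.357 to 12.19) and had the lowest Paneth cell sum of its group (2386 CPM). In hearts, Trib3 was high in replicate 1 of the experiment 2 naproxen group (3.241 CPM, others 2.089 to 2.389). Chac1 was high in replicate 2 of the experiment 3 tryptophan group (6.191 CPM, others 2.155 to 3.575), and Sesn2 was low in replicate 2 of the experiment 3 controls (2.309 CPM, others 3.108 to 3.757).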

How the results depend on the processing

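Counts of members called stayed at 0 in the 16 treatment comparisons under the settings tried, with these exceptions. For naproxen with tryptophan in hearts the count was 1 with DESeq2 and 1 with only the groups compared (Atf4 both times). For naproxen against celecoxib it was 1 without the filter on low counts and between 0 and 1 when libraries were left out (Atf5, without naproxen replicate 6). With the replicate block the count was 0 in all 16. Between dissection batches of hearts, 3 members were called with DESeq2, 0 with limma-voom, 4 without the filter and 0 to 1 with a heart left out, against 1. Over all genes, DESeq2 called more than edgeR: 477 against 41 for naproxen with tryptophan in hearts, 54 against 2 for naproxen in females of experiment 1, 94 against 2 for naproxen in jejunum and 291 against 0 for naproxen against celecoxib. Without the filter, 253 to 1784 genes were called in jejunal comparisons that called 0 to 2 with it. The cause was not tested.

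Pairs with an adjusted p under 0.05 numbered 4, 5 and 2 within heart experiments 1, 2 and 3, against 13. In the jejunum they numbered 0 within each of dissection batches 2, 3 and 4, also against 13. Batch 1, with 10 jejuna as in batches 2 and 3, was the only batch whose count did not move clearly from 13. Ddit3 with Phgdh, for example, had r = -0.835 in batch 1 and -0.235 in batch 2. Each experiment or batch holds fewer animals than its tissue as a whole. The sign turned for Ddit3 with Trib3 (-0.116) and with Sesn2 (-0.12) in experiment 2, for Ddit3 with Chac1 in experiment 3 (-0.628) and given the smooth muscle list (-0.188) or Des alone (-0.045), for Atf4 with Ddit3 given Cox8b alone (-0.213), for jejunal Asns with Phgdh in batch 2 (-0.237) and Trib3 with Psat1 in batch 3 (0.121). For marker relations, the lowest r within an experiment with the smooth muscle list was -0.018 for Ddit3, -0.301 for Trib3 and -0.069 for Sesn2, and the highest for jejunal Asns with immediate early genes was 0.183. Among the tested genes, counts in a jejunum fell as low as 4 for Chac1 and 24 for Atf5, and the shallowest jejunal library held 10107001 counts.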
